A study of Rattus norvegicus with 6 samples.

Results

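The transcripts described here are those of 9 myelin structural protein genes: Mbp, Mobp, Mog, Mag, Mal, Cnp, Cldn11, Opalin and Ermn. They were taken as all rows of the deposited expression table whose gene symbol matched one of these names. Each name matched 1 row, which gave 9 of the 22062 genes in the table, and all 9 were among the 12441 genes that passed the filter on low counts. The rule for membership uses names only, although the set was proposed with earlier results of these data known. They were read in hippocampus of Sprague Dawley rats that had undergone single prolonged stress (SPS, 3 libraries), which serves as a rodent model of post-traumatic stress disorder, and of untreated rats of the same strain (Control, 3 libraries). The SPS rats were immobilised in a plastic container for 2 hours, made to swim for 20 minutes in water at 24 °C with a rest of 15 minutes, anaesthetised until they lost consciousness and put back in their cages. Control rats stayed unhandled in their home cages. The age and sex of the rats and the time from stress to dissection are not stated in the labels. Nor do they state that each library comes from its own animal, so the p-values speak only of the spread among these 6 libraries.

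Myelin is the stack of lipid-rich membrane that oligodendrocytes wrap around axons in the central nervous system, where it speeds conduction of the nerve impulse. In compact myelin the inner faces of the membrane are held together by basic proteins such as myelin basic protein, while cytoplasm remains in the inner loop, the outer loop and the paranodal loops beside each node of Ranvier. In hippocampus, myelin is found mainly in the fibre tracts, the alveus and fimbria, and along fibres that run through the cell and dendritic layers. In bulk tissue, more oligodendrocytes and more RNA per oligodendrocyte cannot be told apart.

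All 9 transcripts had a higher mean in SPS than in Control, and all 9 were higher in SPS within each of the 3 same-numbered pairs of libraries. The fitted log2 fold changes ran from 0.73 for Opalin to 1.04 for Mobp, with a median of 0.88. No gene passed the test, however: 0 of the 9 had an adjusted p under 0.05 in edgeR's quasi-likelihood test, where 0% of all 12441 genes did. That test did not use the pairs, and with the replicate number as a block the counts were also 0. SPS replicate 2 held the highest level of 8 of the 9 genes, against 25.4% of all genes. The median log2 fold change was 0.51 without this library and 0.40 without both libraries numbered 2.

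The sequences before the starts of 3 of the genes are shown because they hold the short motifs that were looked for, in genes whose transcripts were all higher in SPS in every pair. RefSeq promoter entries on build GRCr8 matched 7 of the 9 genes by symbol, with 8 start sites in all, since Mbp has 2. Mog and Ermn had no entry. The 250 bases before each start were searched on both strands for ACAAAG, a core sequence bound by SOX factors, for CTGGCAC, a sequence bound by the myelin regulatory factor MYRF, for the E-box CAGCTG of basic helix-loop-helix factors, and for TATAAA. Only the stretch before the outermost start of the gene is printed, 5′ to 3′ on the strand of the gene, with matches in capitals. CTTTGT and GTGCCAG are ACAAAG and CTGGCAC read on the other strand, and no match overlapped another.
Mobp, chr8:128746982-128747116, plus strand: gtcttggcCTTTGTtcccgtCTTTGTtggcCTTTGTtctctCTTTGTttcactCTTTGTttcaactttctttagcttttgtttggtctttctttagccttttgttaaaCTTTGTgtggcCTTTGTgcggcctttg
Cnp, chr10:86011254-86011503, plus strand: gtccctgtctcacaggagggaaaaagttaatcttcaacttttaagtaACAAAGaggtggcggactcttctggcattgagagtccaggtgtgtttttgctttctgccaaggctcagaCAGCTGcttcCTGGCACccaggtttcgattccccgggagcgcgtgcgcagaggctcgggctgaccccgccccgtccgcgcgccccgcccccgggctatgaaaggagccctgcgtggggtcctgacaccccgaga
Mal, chr3:135341424-135341673, minus strand: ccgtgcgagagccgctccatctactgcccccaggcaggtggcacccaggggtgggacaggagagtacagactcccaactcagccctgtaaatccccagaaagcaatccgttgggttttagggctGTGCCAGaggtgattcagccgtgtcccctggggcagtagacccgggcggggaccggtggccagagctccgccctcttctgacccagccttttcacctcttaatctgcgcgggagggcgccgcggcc

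Mobp held 8 matches to ACAAAG in its window, all on the opposite strand, of which 7 fall in the 135 bases printed. ACAAAG was found at 5 of the 8 member starts (Mag, Opalin, Mobp, Cnp and 1 start of Mbp) and at 16.3% of 33469 starts in the RefSeq table. CTGGCAC was found at 4 of the 8 (Mag, Opalin, Mal and Cnp) and at 3.78% of all starts. The E-box was found at 3 of the 8 (Opalin, Cnp and 1 start of Mbp) and at 11.97% of all starts, and TATAAA at 0 of the 8 and at 12.9% of all starts. Cldn11 held none of these letters in its window. Parts of some windows lie inside the gene's own span: 233 of the 250 bases for Opalin and 89 for Mag. Before the outermost start lay 0 of the 4 Opalin matches and 1 of the 2 Mag matches. The Mbp start with matches lies downstream of the other Mbp start. All hits are matches of letters only, and binding was not measured.

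The libraries held between 4081184 reads (SPS replicate 2) and 11838770 reads (Control replicate 1), after the deposited counts were turned back into whole reads. Libraries with the same number resembled each other more than libraries of the same group did for numbers 1 and 3: the chi-square per degree of freedom over genes was 7.22 between SPS replicate 3 and Control replicate 3 and 20.6 between SPS replicate 1 and Control replicate 1, against 53.8 or more between any 2 libraries of 1 group. SPS replicate 2 stood apart by transcripts of the choroid plexus, the tissue in the ventricles that makes cerebrospinal fluid, whose 12 markers summed to a CPM of 37585 there and to between 93.1 and 272 in the other 5 libraries. Results are therefore given also without this library. CPM values are reads of a gene per 1e+06 reads of the library, adjusted with TMM factors. They compare libraries for 1 gene, while levels of different genes are compared in FPKM, which also divides by transcript length.

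The 9 genes together took 1.15%, 2.56% and 0.823% of all reads in SPS replicates 1, 2 and 3, and 0.965%, 0.662% and 0.658% in Control replicates 1, 2 and 3. In summed CPM this was 11590.0, 24213 and 8532 in SPS replicates 1 to 3, against 9997, 6249 and 6926 in Control replicates 1 to 3. SPS replicate 2 was far above the rest, and SPS replicate 3 lay below Control replicate 1, so the groups overlapped. Within the pairs, SPS was 1.16 times Control for number 1, 3.87 times for number 2 and 1.23 times for number 3. Mbp gave between 66.3% (SPS replicate 3) and 77.7% (Control replicate 1) of the reads of the 9. Without Mbp, the sums were 3005, 5462 and 2878 CPM in SPS replicates 1 to 3 and 2227, 1767 and 2183 CPM in Control replicates 1 to 3, and the groups did not overlap. Whether the summed groups overlapped thus depended on this 1 gene.

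Mbp encodes myelin basic protein, the cytoplasmic protein that brings the inner membrane faces together (ENSRNOG00000016516, chromosome 18, 79326737 to 79437310 in the table, which names no build). It stood at 8586, 18751 and 5654 CPM in SPS replicates 1 to 3, against 7769.7, 4483 and 4743 CPM in Control replicates 1 to 3. SPS replicate 2 was high by itself, and SPS replicate 3 lay below Control replicate 1. The means were 10997 ± 6874 CPM in SPS and 5665 ± 1827 CPM in Control (SD, n = 3 each). This gave a log2 fold change of 0.96 ± 0.52 (SE; edgeR unadjusted p = 0.105 and adjusted p = 1.00). It was 0.33 without SPS replicate 2 and 0.17 without both libraries numbered 2.

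Mobp encodes a small basic protein of compact central myelin (ENSRNOG00000018700, chromosome 8, 128824507 to 128850358 in the table). Its level was 646, 1085 and 408 CPM in SPS replicates 1 to 3, against 423, 278 and 342 CPM in Control replicates 1 to 3. SPS replicate 3 lay just below Control replicate 1, so the groups overlapped. The log2 fold change of 1.04 ± 0.43 (SE) had the smallest p of the 9 (edgeR unadjusted p = 0.0430 and adjusted p = 1.00), and it was 0.60 without SPS replicate 2.

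Mal encodes a membrane proteolipid of myelin that takes part in sorting proteins and lipids to the myelin membrane (ENSRNOG00000015445, chromosome 3, 120209646 to 120233655 in the table). It was at 387, 712 and 370 CPM in SPS replicates 1 to 3, against 241, 270 and 285 CPM in Control replicates 1 to 3. Every SPS library lay above every Control library, and the Control libraries lay close together (266 ± 22.5 CPM, SD, n = 3). With the replicate number as a block, Mal had the smallest p of the 9 (log2 fold change 0.82 ± 0.24, SE; edgeR unadjusted p = 0.0147 and adjusted p = 0.967). It stood at 0.51 both without SPS replicate 2 and without the pair numbered 2.

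Cldn11 encodes claudin 11, which forms the tight junction strands between myelin layers (ENSRNOG00000010263, chromosome 2, 115823537 to 115836846 in the table). It stood at 346, 861 and 560.2 CPM in SPS replicates 1 to 3, against 290, 314 and 390 CPM in Control replicates 1 to 3. SPS replicate 1 lay below Control replicate 3, and both libraries numbered 3 were above both numbered 1. This order of the numbers differed from that of Mbp, which was higher in both libraries numbered 1 than in both numbered 3. The log2 fold change of Cldn11 was 0.83 ± 0.40 (SE; edgeR unadjusted p = 0.0745 and adjusted p = 1.00), and 0.45 without SPS replicate 2.

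Transcripts for proteins of the myelin surfaces and of the loops that keep cytoplasm had fold changes of the same sign, and none passed the adjusted test. Mag encodes a sialic acid-binding glycoprotein of the membrane next to the axon (ENSRNOG00000021023, chromosome 1, 89345428 to 89360733 in the table). It was at 376, 782 and 315 CPM in SPS replicates 1 to 3, against 309.8, 207 and 207.5 CPM in Control replicates 1 to 3. SPS replicate 3 was above Control replicate 1 by a small margin, so the groups did not overlap in CPM. The log2 fold change was 1.02 ± 0.44 (SE; edgeR unadjusted p = 0.0491 and adjusted p = 1.00), and 0.52 without SPS replicate 2.

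Mog encodes a glycoprotein of the outermost myelin surface (ENSRNOG00000000775, chromosome 20, 2004051 to 2025767 in the table). It was at 159, 323 and 157 CPM in SPS replicates 1 to 3, against 134, 76.8 and 128 CPM in Control replicates 1 to 3. The groups did not overlap, and the lowest level was that of Control replicate 2. Its fitted log2 fold change was 0.92 ± 0.43 (SE; edgeR unadjusted p = 0.0654 and adjusted p = 1.00), and 0.49 without SPS replicate 2. The table gives Zfp57, on the opposite strand, the same span as Mog, with 43 to 146 reads in a library where Mog had 433 or more, and the sources used here do not say whether counting used strand.

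Cnp encodes the cyclic nucleotide phosphodiesterase of the cytoplasmic channels of myelin (ENSRNOG00000017496, chromosome 10, 88490797 to 88497356 in the table). Levels were 723, 1319 and 733 CPM in SPS replicates 1 to 3, against 611, 475 and 547 CPM in Control replicates 1 to 3. The groups did not overlap, and SPS replicates 1 and 3 were nearly equal. For Cnp the log2 fold change was 0.77 ± 0.36 (SE; edgeR unadjusted p = 0.0681 and adjusted p = 1.00), and 0.42 without SPS replicate 2.

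Opalin encodes a transmembrane glycoprotein of the paranodal and inner loops (ENSRNOG00000022386, chromosome 1, 260324027 to 260341723 in the table). It stood at 236, 265 and 192 CPM in SPS replicates 1 to 3, against 152, 102 and 164 CPM in Control replicates 1 to 3. The groups did not overlap, and SPS replicate 2 stood only slightly above SPS replicate 1. Opalin had a log2 fold change of 0.73 ± 0.34 (SE; edgeR unadjusted p = 0.0629 and adjusted p = 1.00).

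Ermn encodes ermin, an actin-binding protein of mature oligodendrocytes (ENSRNOG00000021472, chromosome 3, 44025299 to 44086022 in the table). It was at 130.4, 115 and 144 CPM in SPS replicates 1 to 3, against 68.2, 43.8 and 119.9 CPM in Control replicates 1 to 3. SPS replicate 2 was the lowest of its group here, the reverse of the other 8 genes, and it lay just below Control replicate 3. The spread was in Control (77.3 ± 38.9 CPM) more than in SPS (129.5 ± 14.5 CPM, SD, n = 3 each). Ermn had a log2 fold change of 0.74 ± 0.42 (SE; edgeR unadjusted p = 0.120 and adjusted p = 1.00). It was 0.83 without SPS replicate 2, 0.46 without Control replicate 2 and 1.19 without Control replicate 3. Galnt5 has the same span in the table on the opposite strand, with 0 to 23 reads in a library.

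**Figure D1:**
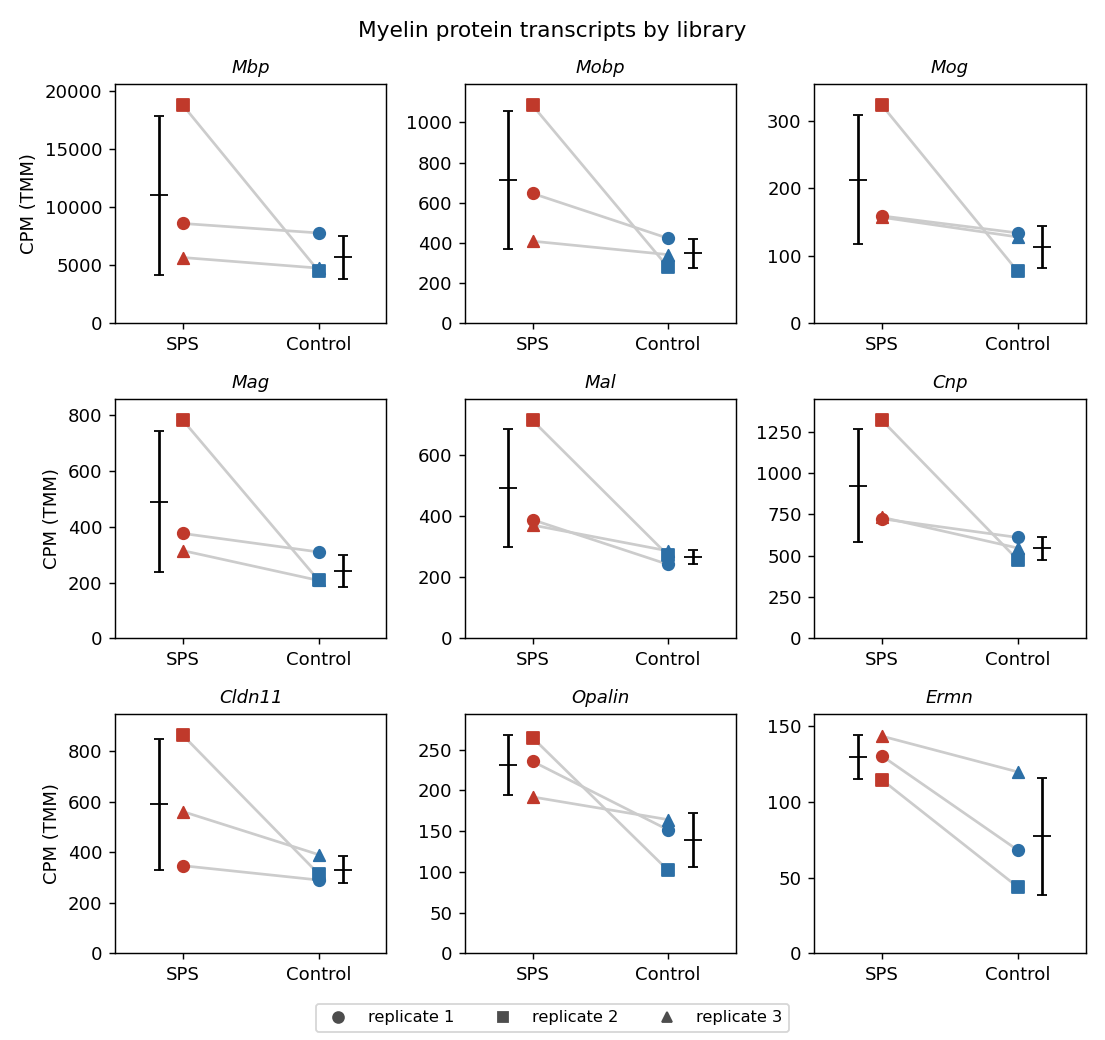
CPM of each of the 9 genes (vertical axes from 0) in the SPS libraries (red, left) and the Control libraries (blue, right). Symbols give the replicate number, grey lines join same-numbered libraries, and black bars are the mean ± SD of 3 libraries. SPS replicate 2 (square) is the highest point in 8 panels, and in the Ermn panel it is the lowest SPS point at 115 CPM.

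Counts of genes were read against the same counts over all genes tested. In CPM, every SPS library lay above every Control library for 5 of the 9 genes (Mog, Mag, Mal, Cnp and Opalin), against 1.54% of all genes, and every SPS library lay below every Control library for 0 of the 9, against 1.4% of all genes. For 3 against 3 libraries, an exact permutation test of a single gene can give no p under 0.1, two-sided, so that a gene with no overlap reaches this value and no lower one. Without SPS replicate 2, the groups did not overlap for 6 of the 9, with Ermn added, against 3.45% of all genes. Without both libraries numbered 2 the count was also 6, against 5.84% of all genes. These genes are transcribed in the same cells and were read in the same libraries, so their counts are not independent of each other.

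In each of the 3 same-numbered pairs, SPS was above Control for all 9 genes, against 11.6% of all genes, and 0 were lower in all 3 pairs, against 13.2% of all genes. In the pair numbered 1, SPS was between 1.11 times Control (Mbp) and 1.91 times Control (Ermn), with a median of 1.21. In the pair numbered 3, it was between 1.17 times (Opalin) and 1.52 times (Mag), with a median of 1.23. The pair numbered 2 had the wide differences, between 2.60 times (Opalin) and 4.20 times (Mog), with a median of 2.78. There the genes fell apart by size in CPM: Mog, Mbp, Mobp and Mag were 3.77 to 4.20 times higher in SPS, and Cnp, Cldn11, Mal, Ermn and Opalin 2.60 to 2.78 times. In FPKM, Ermn stood between these in the same pair, at 3.14 times. In CPM, Control replicate 2 was the lowest of the 6 libraries for 7 of the 9 genes, for Mag level with Control replicate 3. For Mal and Cldn11 the lowest was Control replicate 1. The share of all genes that were lowest in Control replicate 2 was not counted, so the 7 are not read as a result about these genes. In the pairs numbered 1 and 3 alone, all 9 were higher in SPS in both, against 25.1% of all genes.

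**Figure D2:**
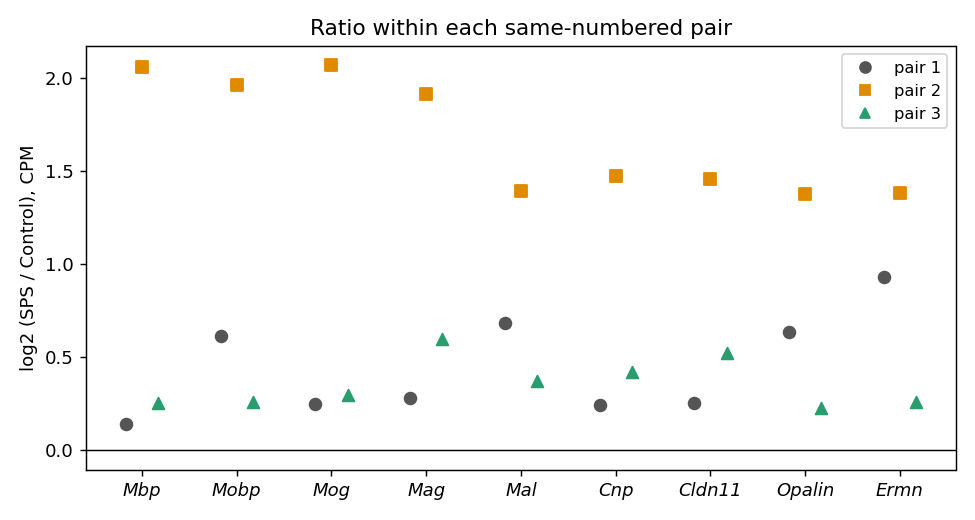
Log2 of the ratio of SPS to Control CPM (vertical axis) within each same-numbered pair, for each of the 9 genes. All points lie above 0, those of pair 2 (orange squares) between 1.38 and 2.07, and those of pairs 1 and 3 between 0.14 and 0.93.

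By edgeR's quasi-likelihood test, 3 of the 9 genes (Mobp, Mag and Mal) had an unadjusted p under 0.05 with a higher level in SPS, against 0.313% of all genes, and their adjusted p was 1.00. At the same unadjusted limit, DESeq2 gave 4 of the 9, against 0.675% of all genes in that fit. limma on log2(FPKM + 1) gave 2 of the 9, against 0.473%, and edgeR with the replicate block 7 of the 9, against 1.38%. By adjusted p each of these fits gave 0. The shares for DESeq2, limma and the block count genes of either direction, while the 0.313% counts only genes higher in SPS. The median log2 fold change of the 9 was 0.88, against −0.02 over all genes tested, and 47.9% of all genes had a positive value. The 95% intervals of the 9 fold changes reached from −0.25 to 2.17 for Mbp and from −0.05 to 1.51 for Opalin, and those of Mobp, Mag and Mal lay above 0 before adjustment. The common biological coefficient of variation was 61.1% in the edgeR fit without the block and 39.6% with it.

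**Figure D3:**
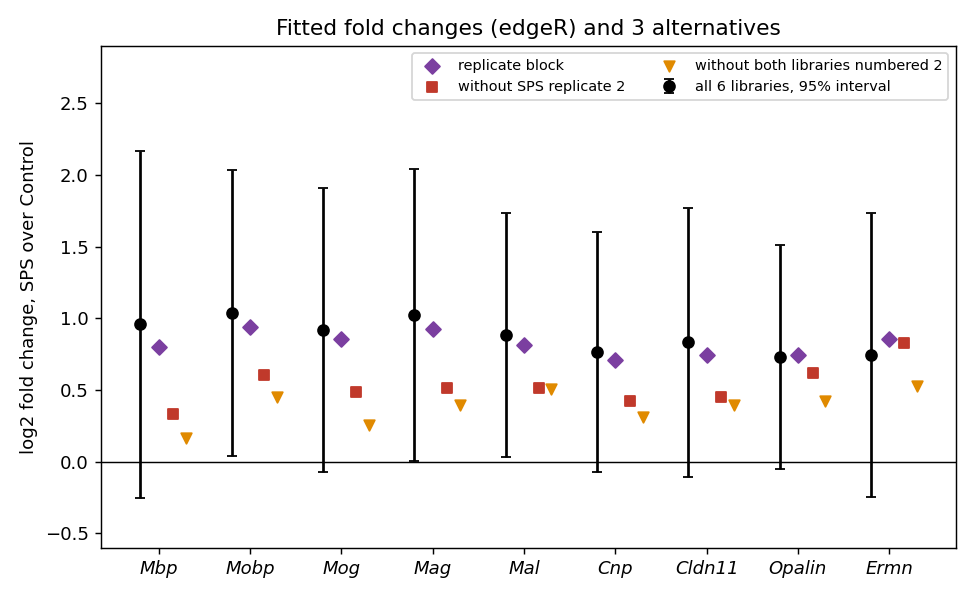
Log2 fold change of SPS over Control (vertical axis) from edgeR for each gene, with all 6 libraries (black, with 95% interval), with the replicate block, without SPS replicate 2 and without both libraries numbered 2. Every point is above 0, and the values without both libraries numbered 2 lie between 0.17 for Mbp and 0.53 for Ermn.

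Per length, Mbp was by far the most abundant of the 9 in every library. Its level was 4155, 9646 and 2602 FPKM in SPS replicates 1 to 3, against 3657, 2303 and 2107 FPKM in Control replicates 1 to 3. This was between 66.8% and 76.1% of the summed FPKM of the 9 genes in SPS libraries, and between 68.9% and 77.5% in Control libraries, so its part in the whole differed between libraries more than between groups. The mean over the 6 libraries was 4078 FPKM for Mbp, 331 for Mobp, 317 for Cnp, 251 for Cldn11, 165 for Mal, 161 for Mag, 106 for Mog, 65.6 for Opalin and 64.0 for Ermn. In this order, Mobp was above Cnp in only 3 of 6 libraries, Mal above Mag in 4 and Opalin above Ermn in 4, so these neighbours could not be ranked. Mobp was also above Cldn11 in only 4 of 6, the exceptions being both libraries numbered 3. The other neighbours in this order, taken pair by pair, kept their order in all 6 libraries.

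The transcript length behind the counts varied for 2 of the genes. The ratio of deposited count to FPKM scales with the transcript length that the authors' quantification assigned, and after removal of each library's median shift it was set relative to Control replicate 1. For Mobp the ratio was 1.05, 0.818 and 1.28 in SPS replicates 1 to 3, against 1.00, 0.801 and 1.24 in Control replicates 1 to 3. It followed the replicate number and not the group, being short in both libraries numbered 2 and long in both numbered 3. For Ermn it was 0.891, 0.806 and 0.916 in SPS replicates 1 to 3, against 1.00, 0.964 and 0.959 in Control replicates 1 to 3. Every SPS library was thus below every Control library, but the share of all genes with such a separation of this ratio was not counted. For the other 7 genes the highest ratio was at most 1.03 times the lowest, and over the 7900 genes with enough counts the median was 1.02 times. Of those 7900 genes, 18.2% had a highest ratio more than 1.1 times the lowest, so a spread above that limit was not particular to Mobp and Ermn. CPM and FPKM differ both in this length and in how libraries are scaled, and the part of each was not tested. Ermn overlapped between the groups in CPM and not in FPKM, where it stood at 83.3, 86.1 and 84.3 in SPS replicates 1 to 3, against 37.8, 27.5 and 65.1 in Control replicates 1 to 3. Mag did not overlap in CPM and did in FPKM, at 129.7 in SPS replicate 3 against 133 in Control replicate 1. In FPKM the groups did not overlap for 5 of the 9 genes (Mog, Mal, Cnp, Opalin and Ermn), against 2.15% of 13745 genes, and all 9 were higher in SPS in all 3 pairs, against 13.6%.

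**Figure D4:**
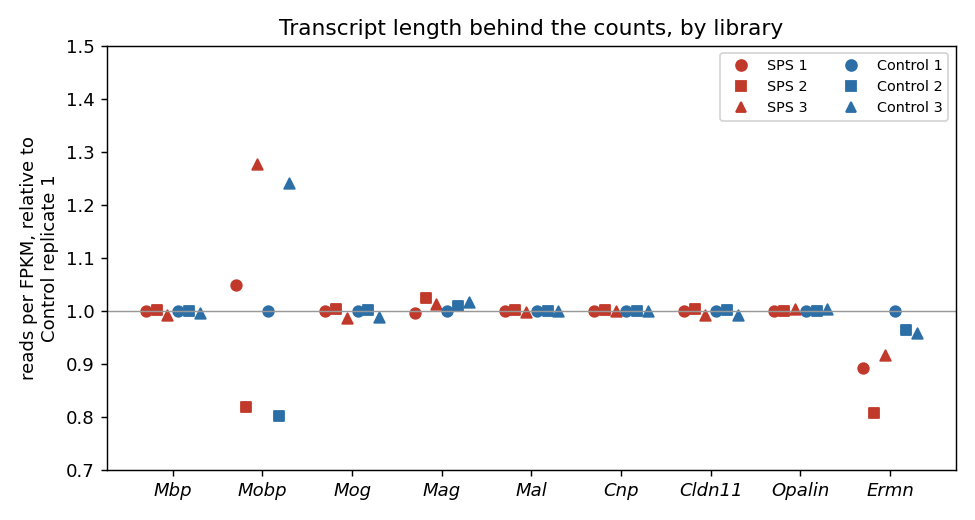
Ratio of deposited count to FPKM (vertical axis, relative to Control replicate 1) for each gene in each SPS library (red) and Control library (blue), with symbols by replicate number. Mobp spreads from 0.801 to 1.28 by replicate number, Ermn is at 0.806 to 0.916 in SPS and 0.959 to 1.00 in Control, and the other 7 genes stay near 1.

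As a description, the Pearson correlation of log2 CPM with the mean of the other 8 genes over 6 libraries was 0.98 for Cnp and for Mog, 0.95 for Mobp, 0.93 for Mag, 0.92 for Mal, 0.91 for Opalin, 0.87 for Mbp, 0.81 for Cldn11 and 0.57 for Ermn. Ermn, and next to it Cldn11, followed the rest least. Among 9259 other genes with a mean of at least 10 CPM, those whose log2 CPM was most like the mean pattern of the 9 over the same 6 libraries included Ptpn11, which encodes a protein tyrosine phosphatase (r = 0.99), Ift80, a gene of intraflagellar transport (0.99), Foxo4, a forkhead transcription factor (0.99), Wscd1 (0.98), Bcas1 (0.97), Sema4d, a semaphorin (0.97), and Rbl2, a transcriptional corepressor (0.97). These are values over 6 points, ranked among many genes, and no test goes with them. Ptpn11 stood at 381, 555 and 357 CPM in SPS replicates 1 to 3, against 291, 238 and 322 CPM in Control replicates 1 to 3. Ptpn11 was picked for its likeness to the mean pattern of the 9, so the order of its libraries follows from that choice and is no further result.

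Other genes of myelin and of oligodendrocytes were read from a list of 37 names, of which 36 were in the table and tested. Of these 36, 35 had a higher fitted level in SPS, 25 were higher in SPS in all 3 pairs (69.4%, against 11.6% of all genes) and 0 passed the adjusted test. Every SPS library lay above every Control library for 10 of them (27.8%, against 1.54% of all genes). The median log2 fold change was 0.78, and the exception below 0 was Aspa, which encodes aspartoacylase, at −0.26. The list was drawn up with results of these data known, so its direction is no independent evidence.

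Tf, which encodes the iron carrier transferrin, made in brain by oligodendrocytes and by the choroid plexus, was among the genes of highest mean CPM in that list. It was at 688, 2694 and 594 CPM in SPS replicates 1 to 3, against 574, 420.4 and 380 CPM in Control replicates 1 to 3. SPS replicate 2, the library with the choroid plexus transcripts, was again far above the rest. Bcas1, a gene of newly myelinating oligodendrocytes, was at 401, 793 and 411 CPM in SPS replicates 1 to 3, against 318, 177 and 345 CPM in Control replicates 1 to 3, with no overlap.

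Of 11 listed genes of the oligodendrocyte precursor, 9 were tested, 8 had a higher fitted level in SPS and 0 passed the adjusted test, with a median log2 fold change of 0.31. In all 3 pairs, 5 of the 9 were higher in SPS (55.6%, against 11.6% of all genes), and 6 had their highest level in SPS replicate 2, against 25.4% of all genes. Their summed level was 683, 1238 and 1493 CPM in SPS replicates 1 to 3, against 563, 715 and 1354 CPM in Control replicates 1 to 3. The sum was highest in the libraries numbered 3 of both groups, and Ptprz1, a receptor phosphatase that astrocytes also make, gave more than any other gene to it there. Without Ptprz1, a gene set aside after its values were seen, the sums were 439.6, 1024 and 650.3 CPM in SPS replicates 1 to 3, against 384, 522 and 559 CPM in Control replicates 1 to 3, and SPS replicate 2 was the highest.

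Genes of the axonal node and its flanks, the partner membrane of the paranodal loops, were tested for 16 of 17 names. Of these, 9 had a higher and 7 a lower fitted level in SPS and 0 passed the adjusted test, with a median log2 fold change of 0.03. In all 3 pairs, 4 were higher in SPS (25%, against 11.6% of all genes), and 1 was lower, against 13.2% of all genes. Every SPS library lay above every Control library for 1 of the 16 (6.25%, against 1.54% of all genes). Dlg4, a scaffold of postsynaptic sites that is also found beside the node, was at 974, 659 and 1033 CPM in SPS replicates 1 to 3, against 978, 874 and 1109 CPM in Control replicates 1 to 3. Ank2, an ankyrin of the axon, was at 736, 212 and 1713 CPM in SPS replicates 1 to 3, against 346, 346 and 1853 CPM in Control replicates 1 to 3. Nrcam, an adhesion molecule of the node, was at 682, 232 and 1361 CPM in SPS replicates 1 to 3, against 545, 361 and 1558 CPM in Control replicates 1 to 3. SPS replicate 2 was the lowest library for all 3 of these genes, and Ank2 and Nrcam were far higher in both libraries numbered 3 than in the other 4.

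The summed level of ependymal markers was also higher in every SPS library than in any Control library, and that of choroid plexus markers was high in SPS replicate 2 alone. Of the 12 choroid plexus markers, 7 were tested, and all 7 had their highest level there, against 25.4% of all genes. The list summed to 142, 37585 and 163 CPM in SPS replicates 1 to 3, against 93.1, 125 and 272 CPM in Control replicates 1 to 3, and Otx2 was at 0 reads in all 6 libraries. In SPS replicate 2, Ttr alone gave 31254 CPM of the sum. Enpp2 gave 103 and 120 CPM of it in SPS replicates 1 and 3, and 67.0, 64.8 and 124 CPM in Control replicates 1 to 3. Ependymal markers, genes of the ciliated lining of the ventricles, summed to 92.4, 222 and 96.3 CPM in SPS replicates 1 to 3, against 31.8, 24.1 and 71.3 CPM in Control replicates 1 to 3, with 8 of 12 tested and Spag16 at 0 reads. All 8 tested had a higher fitted level in SPS, with a median log2 fold change of 1.89, and 0 passed the adjusted test. Some had few reads in Control, such as Cfap126 with 22, 0 and 7 in Control replicates 1 to 3, against 42, 114 and 33 in SPS replicates 1 to 3. A gene can pass the filter on low counts through the libraries of 1 group alone, so being tested can itself favour genes high in SPS. In all 3 pairs, 6 of the 8 were higher in SPS (75%, against 11.6% of all genes), and 2 did not overlap between the groups (25%, against 1.54%). Neuronal markers, 12 of 12 tested, summed to 8857, 4393 and 9121 CPM in SPS replicates 1 to 3, against 8843, 6726 and 9749.5 CPM in Control replicates 1 to 3. SPS replicate 2 was thus the highest for both ventricular lists and the lowest for neurons, and Control replicate 2 was the second lowest for neurons. Of the 12 neuronal markers, 3 had a higher and 9 a lower fitted level in SPS, and 0 passed the adjusted test. In all 3 pairs, 6 of the 12 were lower in SPS, against 13.2% of all genes, and 2 were higher, against 11.6%. The part of these cells in the myelin result was not tested. Without SPS replicate 2, the 9 fitted log2 fold changes ran from 0.33 for Mbp to 0.83 for Ermn, choroid plexus markers summed to at most 163 CPM in SPS and 272 CPM in Control, and ependymal markers were still higher in SPS.

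Other lists did not separate the groups in the same way. Astrocyte markers summed to between 3182 and 5173 CPM in SPS libraries and between 3531 and 5009 CPM in Control libraries, with 9 of 10 tested. Microglial markers, 10 of 10 tested, summed to between 271 and 472 CPM in SPS libraries and between 267 and 464 CPM in Control libraries. Endothelial and mural markers, 10 of 12 tested, summed to between 197 and 394 CPM in SPS libraries and between 246 and 505 CPM in Control libraries.

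**Figure D5:**
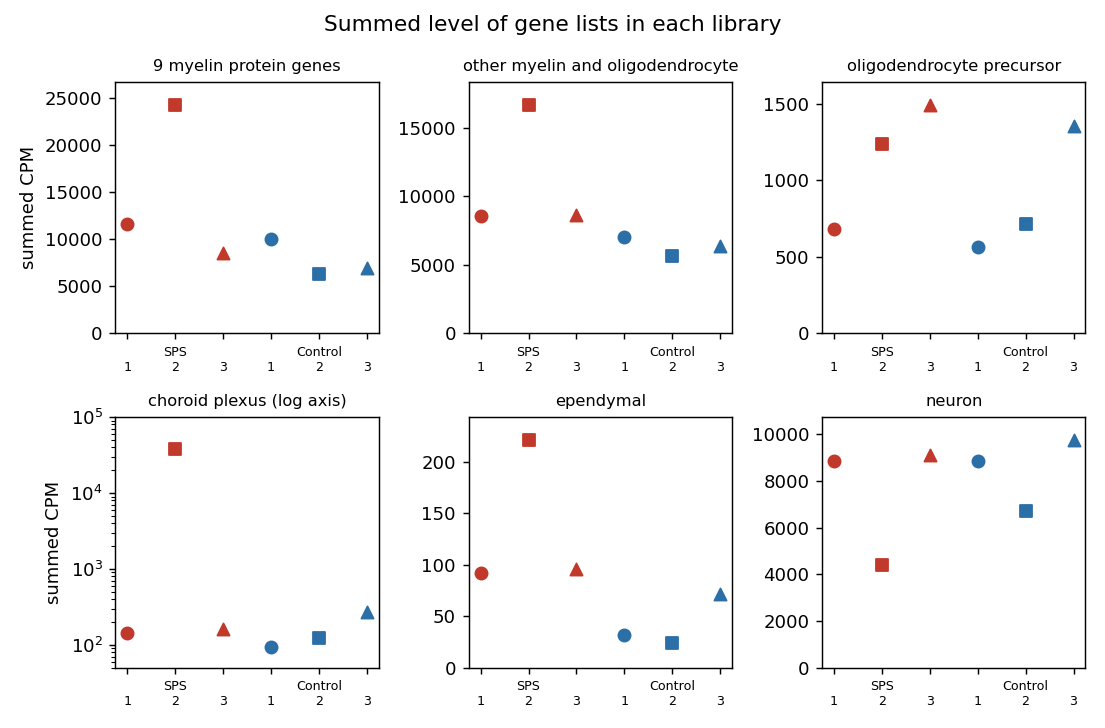
Summed CPM (vertical axes from 0, except choroid plexus on a log axis) of the 9 myelin genes and of 5 marker lists in SPS replicates 1 to 3 (red, left) and Control replicates 1 to 3 (blue, right). SPS replicate 2 (square) is highest for the myelin genes at 24213 CPM and for the other oligodendrocyte, choroid plexus and ependymal lists, and lowest for neurons at 4393 CPM.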

How the data were processed

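Hippocampal RNA of 3 SPS and 3 Control samples was cleared of ribosomal RNA and sequenced for 150 cycles after stranded library preparation, per the labels' protocols. CASAVA 1.8 and HISAT2 were used, per the submitters' processing notes, which name the human build hg19 although the identifiers are rat Ensembl ones; no source used here gives the rat build, annotation, quantifier or use of strand. The FPKM values were made by the authors. The estimated counts deposited by the authors were not whole: in each library 99.3% to 99.6% of values above 0 were whole multiples of 1 step, to within 0.05 reads, and were divided by it and rounded to whole reads.

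The reads were tested in edgeR 4.0.16 (R 4.3.3) with TMM factors, filterByExpr and a two-sided quasi-likelihood test of group, and Benjamini-Hochberg adjustment over 12441 genes. The SE is the absolute log2 fold change over the square root of F. Alternatives were DESeq2 1.42.0, limma 3.58.1 on log2(FPKM + 1) for genes of mean FPKM of at least 0.5, a replicate block, other scalings and filters, and libraries left out. Deviations from group means correlated across genes at 0.41, 0.37 and 0.67 between same-numbered libraries, all above the limit of 0.1, and at no more than 0.16 otherwise, so the numbers were taken from the data to pair the libraries. No 2 libraries agreed within sampling noise.

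The 9 genes, the lists and the motifs were chosen with earlier results of these data known. Named beside the 9 were the 3 genes of highest mean CPM in the myelin and axon lists and the 8 genes of most similar pattern, of which 1 gene is not reported here; Aspa and single markers were named after their values were seen.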

Additional observations from a re-analysis of the deposited data

How the results depend on the processing

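Under all 15 alternatives 0 genes and 0 of the 9 had an adjusted p under 0.05, and each of the 9 log2 fold changes kept its positive sign. With the replicate block the adjusted count was 0, the median log2 fold change of the 9 was 0.82, and the block changed no call. The median ranged from 0.40 without both libraries numbered 2 to 1.07 without SPS replicate 1. Leaving out 1 library at a time moved it between 0.51 (without SPS replicate 2) and 1.07, and moved Mbp between 0.33 and 1.26 and Ermn between 0.46 and 1.19. Of the 9, the number at an unadjusted p under 0.05 in edgeR was 3 as reported (42 of all 12441 genes, either direction). It was 0 with no filter on low counts (146 of 16710 genes) and 0 without SPS replicate 2 (19 of 12820). Leaving out Control replicate 1 (34 of 12920), Control replicate 2 (11 of 12767) or both libraries numbered 2 (11 of 13057) also gave 0. The number was 1 without SPS replicate 1 (152 of 12899) and 1 without Control replicate 3 (230 of 12896). It was 4 without SPS replicate 3 (111 of 12810) and 7 with the block (172 of 12441). Counts of genes without overlap between groups were recomputed without SPS replicate 2 and without both libraries numbered 2 as alternatives chosen after seeing the data. The lowest count of any of the 9 in a library was 247 reads.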
